A study of Rattus norvegicus with 28 samples.

Results

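The genes described here encode the subunits of Mediator, a large nuclear complex that carries signals from transcription factors bound at enhancers to RNA polymerase II. Members were the genes of the expression table whose symbol is Med followed by a number, plus Cdk8, Cdk19 and Ccnc, with 1 transcript per symbol, the one with the highest mean over all libraries. This gave 31 members of 17455 gene symbols, and 30 of them, all but Med22, reached a mean of 1 TPM and entered the tests with 10275 genes in all. The values come from bulk RNA-seq of INS-1, an insulin-secreting line derived from a rat insulinoma, and are in TPM, a level per exon length that is scaled to the same total in each library. One genotype was WT and the other the knock-in Med14 S983A, an alanine in place of a serine of the Mediator scaffold subunit that lies in a target motif of protein kinase A. For each genotype there was an untreated group (CON), 3 groups given 10 nM Ex-4 (exendin-4, a stable agonist of the GLP-1 receptor) for 1, 8 or 16 h, and 3 groups given 10 µM FSK (forskolin, which activates adenylyl cyclase and so raises cAMP) for the same times. The 14 groups held 2 libraries each. Cells were put into medium without serum before an agent was added, and the labels give this protocol for the CON samples too. The knock-in lines were clones grown from single sorted cells after electroporation of a Cas9 vector and a repair template and selection in puromycin. The study used 2 independent knock-in lines for its experiments, but which line gave each library is not stated in the sources used here, so the 2 libraries of a Med14 S983A group may come from 1 clone or from 2. Lines with a FLAG and Strep tag on endogenous Med19 were also made for the study in both backgrounds, and whether the sequenced cells carried that tag is not stated either.

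Mediator is built of a head and a middle module that contact the polymerase, a tail module that most activators bind, and the scaffold Med14 that joins them. A separable kinase module, made of Cdk8 or its paralog Cdk19 with cyclin C (Ccnc), Med12 and Med13, binds the core reversibly and phosphorylates transcription factors and the polymerase machinery. In beta cells cAMP acts through protein kinase A and CREB, whose binding site is the cAMP response element (CRE), and Mediator is among the coactivators that act with CREB.

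Libraries held 42551148 to 57231996 fragments on genes and spike-ins, except 1 of 92635964 (Med14 S983A 8 h FSK replicate 2). ERCC spike-in RNA made up 0.671% to 1.03% of them. Log values of replicates correlated across genes at 0.998 to 0.999, and the methods of the study call them biological replicates. Neither the methods nor the labels say whether they were separate cultures, so the p-values given here measure the spread between these libraries, which may be technical. The 9 beta cell markers found in the table summed to 50770 to 87330 TPM in WT and 53040 to 89180 TPM in Med14 S983A. Among the other marker lists, only that of alpha cells reached 5 TPM, through Gcg (165 to 1345 TPM in WT, 6.09 to 113 TPM in Med14 S983A). TPM values are shares of a library, and in bulk samples fewer cells of a kind and less RNA per cell cannot be told apart. Treatment moved the median of all tested genes, which after 8 h of FSK in WT lay at -0.34 on the log2 scale with TPM, at -0.33 after scaling on the spike-ins and at 0.05 after centring each library on its median. For WT cells given Ex-4 for 16 h the same 3 values were -0.16, 0.14 and 0.03. Each of the 67 changes of members called below had the same direction under all 3 scalings, and 37 of them were called under every alternative run.

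At CON in WT the most abundant subunit genes were Med10 (135 ± 2.91 TPM, SD, n = 2), Med25 (124 ± 8.90 TPM) and Cdk8 (103 ± 0.85 TPM). Med27, Med23 and the cluster of Med28, Med21, Med31, Med19, Med15 and Ccnc followed, the last 6 within 54.4 to 59.9 TPM. Within that cluster Med21 (58.2 and 58.96 TPM), Med31 (55.03 and 60.9 TPM) and Med19 (59.2 and 56.3 TPM) did not differ beyond their spread. At the low end lay Med26 (10.1 ± 0.0382 TPM), Med13 (13.95 ± 0.45 TPM), Med17 (15.4 ± 0.156 TPM) and Med12 (15.7 ± 1.35 TPM). Med22, a head subunit, was listed near 0 in every library, with a highest value of 0.085 TPM. Its transcript is annotated at 2 places on chromosome 3 of the rn6 build (chr3:4861753-4866833 and chr3:5453678-5458760), so its value is uncertain. Med12l and Med13l were not analysed here. Over the 14 group means the members spanned a median of 0.93 on the log2 scale, against 1.11 for all genes tested. The widest span was that of Cdk19 (1.77) and the narrowest that of Ccnc (0.34).

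Because cAMP acts through CREB, the promoters of the members were searched for the CRE letters TGACGTCA and for their core TGACG, on both strands (each CRE contains the core). RefSeq promoter windows of 300 bases, 250 of them before the start site, were at hand for 26 of the 31 members, in build GRCr8. The CRE letters stood in 1 of the 26, Med31, against 1.83% of all 33469 windows and 3.32% of the 8633 windows of tested genes. The core stood in 8 of the 26 (Ccnc, Med7, Med9, Med20, Med21, Med28, Med29 and Med31), against 21.2% of all windows and 33.1% of those of tested genes. Shown are the 250 bases before the start site, in the direction of transcription, of Med31, of Med7 and Med9, which fell within 1 h of FSK, and of Cdk19, the member that fell most, with the matched letters in capitals (the core reads CGTCA where it stands on the other strand). In Med31 (chr10:57338890-57339139, minus strand) the CRE lies 213 to 220 bases before the start, with a further core upstream of it. In Med7 (chr10:31354787-31355036, plus strand) the core lies 39 to 43 bases before it, and in Med9 (chr10:45249979-45250228, plus strand) at 26 to 30 bases, with a further core at the far end of the window. Cdk19 (chr20:45324661-45324910, plus strand) holds neither in this window.
Med31: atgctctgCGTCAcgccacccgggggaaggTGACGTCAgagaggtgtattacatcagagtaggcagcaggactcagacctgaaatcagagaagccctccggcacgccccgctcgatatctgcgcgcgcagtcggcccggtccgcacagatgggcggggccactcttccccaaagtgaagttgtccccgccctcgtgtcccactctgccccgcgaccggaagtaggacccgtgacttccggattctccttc
Med7: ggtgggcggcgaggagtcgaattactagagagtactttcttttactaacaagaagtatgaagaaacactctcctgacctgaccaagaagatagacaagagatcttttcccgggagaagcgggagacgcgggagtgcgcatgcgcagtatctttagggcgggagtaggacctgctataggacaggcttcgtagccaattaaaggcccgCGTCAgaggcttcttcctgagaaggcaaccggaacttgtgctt
Med9: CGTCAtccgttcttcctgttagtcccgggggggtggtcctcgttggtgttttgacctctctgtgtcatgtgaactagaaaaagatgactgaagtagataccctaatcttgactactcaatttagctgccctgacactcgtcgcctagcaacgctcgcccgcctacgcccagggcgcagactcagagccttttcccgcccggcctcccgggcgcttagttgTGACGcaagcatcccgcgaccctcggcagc
Cdk19: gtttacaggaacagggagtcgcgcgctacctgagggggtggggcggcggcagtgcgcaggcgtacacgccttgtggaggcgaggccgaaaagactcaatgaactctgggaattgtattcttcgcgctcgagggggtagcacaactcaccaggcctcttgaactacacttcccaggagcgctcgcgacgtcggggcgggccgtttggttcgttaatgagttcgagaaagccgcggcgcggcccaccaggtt

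Med14, the subunit that carries the substitution, was called in none of the comparisons with TPM. The TPM of a gene does not read the changed base, so it is no check of the knock-in. In WT cells, Med14 was at 21.5 and 20.3 TPM at CON, 21.9 and 22, 23.1 and 24.96, and 17.2 and 19.5 TPM after 1, 8 and 16 h of Ex-4, and 22.4 and 20.4, 25.5 and 25.9, and 21.5 and 21.7 TPM after 1, 8 and 16 h of FSK. The Med14 S983A libraries gave 19.6 and 20.3 TPM at CON, 22.9 and 21.04, 25.5 and 25.4, and 21.1 and 19.8 TPM after 1, 8 and 16 h of Ex-4, and 20.2 and 22.2, 30.03 and 27.3, and 19.6 and 21.2 TPM after 1, 8 and 16 h of FSK. The highest pair was that of Med14 S983A after 8 h of FSK, and it lay above its CON pair. That change was below the fold minimum of 1.5, at 0.50 (SE 0.07, adjusted p = 1.95e-07). In WT the change at 8 h of FSK was 0.29 (SE 0.07, adjusted p = 3.89e-04). After centring on the median both passed the fold minimum, at 0.84 and 0.68. At CON the genotypes differed by -0.06 (SE 0.07, adjusted p = 0.404).

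A call needs a fold above 1.5 with an adjusted p under 0.05 from limma on log2(TPM + 1), whose log2 changes understate those of low genes. After Ex-4 few subunit genes were called at this fold minimum, and no share exceeded that of all genes called. After 1 h none of the 30 was called in WT, where 2.87% of all tested genes were, and none in Med14 S983A, where 3.04% were. At an unadjusted p under 0.05, 14 and 13 members would have passed, and edgeR and DESeq2 also called 0. The share of all genes at an unadjusted p was not counted. On adjusted p with no fold minimum 8 and 8 members passed, against 25.2% and 26.2% of all genes. After 8 h the only call was Med23 in WT (1 of 30, against 9.6% of all genes). In Med14 S983A there were 0 calls by limma, edgeR and DESeq2, against 6.3% of all genes called by limma. There 15 members had an unadjusted p under 0.05. On adjusted p with no fold minimum 14 passed, against 50.6% of all genes. After 16 h, 3 of 30 members were lower in WT (Cdk19, Med23 and Med30), against 8.28% of all genes lower and 11.8% called in either direction. In Med14 S983A the single call at 16 h was Cdk19, against 11.9% of all genes. Without the fold minimum 25 of 30 members were lower in WT at 16 h, against 52.4% of all genes, and 19 of 30 in Med14 S983A, against 37.3%. The WT count depends on the scaling. With spike-ins 3 members were higher and 3 lower (33.9% and 9.39% of all genes). After centring 3 were higher and 13 lower (33.9% and 25.1% of all genes). The median of the members was -0.29 with TPM, 0.03 with spike-ins and -0.10 after centring.

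FSK changed more of them, and with TPM most of the calls were lower. In WT 3 of 30 members were lower after 1 h (4.94% of all genes lower, 7.47% called), 11 of 30 after 8 h (34.8% lower, 43.6% called) and 7 of 30 after 16 h (24.1% lower, 34.5% called). In Med14 S983A 4 were lower after 1 h (7.2% of all genes lower, 10.4% called), 11 lower and 1 higher after 8 h (34.5% lower, 46.1% called) and 6 lower and 1 higher after 16 h (21.1% lower, 33.3% called). At 8 and 16 h the share of members called was thus no higher than that of all genes. The split by direction depends on the scaling. After centring, 3 members were higher and 6 lower at 8 h in WT (18.8% and 18% of all genes). In Med14 S983A 5 were higher and 6 lower at 8 h (21.7% and 21.5%). At 16 h 0 were higher and 3 lower in WT (16.8% and 14.4%). In Med14 S983A 2 were higher and 3 lower at 16 h (17.1% and 15.7%). With spike-in scaling the 8 h splits of the members were those of TPM. At 16 h 2 members were then higher and 2 lower in WT (20.9% and 11.9% of all genes). In Med14 S983A 3 were then higher and 3 lower (20.5% and 13.8%). The median change at 8 h in WT was -0.29 for the members and -0.34 for all genes. By module, the 11 lower genes at 8 h in WT were 4 of the 5 tail genes, 2 of the 5 kinase module genes, 2 of the 10 head genes and 3 of the 9 middle genes, as the plot of changes by module shows. The median of the tail genes there was -0.98, that of the kinase module -0.16, of the head -0.17 and of the middle -0.32. Each treated group was compared with the same CON pair of its genotype, so the 6 comparisons of a genotype share those libraries.

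**Figure D1:**
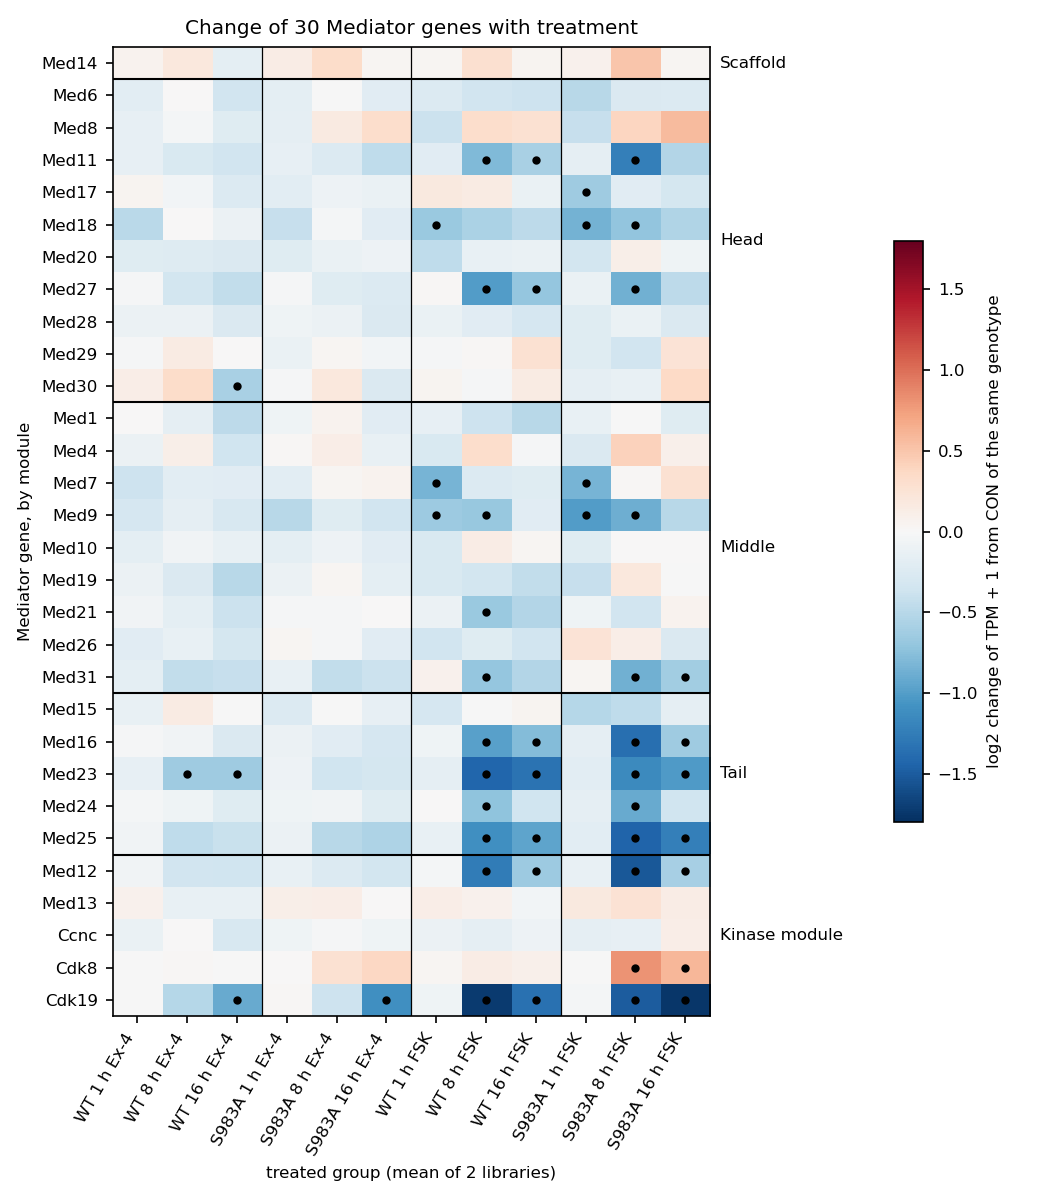
Log2 change of TPM + 1 from CON of the same genotype for the 30 tested Mediator genes (rows, grouped by module) in the 12 treated groups (columns, mean of 2 libraries each). Black dots mark the changes that were called. At 8 h of FSK 4 of the 5 tail genes carry a dot in each genotype. Cdk19 is lowest at 16 h of FSK in Med14 S983A (-1.75), and Cdk8 is highest at 8 h of FSK in Med14 S983A (0.81).

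Within 1 h of FSK the genes that fell were Med18, a head subunit, and Med7 and Med9, subunits of the middle module, in both genotypes. Med7 stood at 38.2 and 41.97 TPM at CON in WT and at 22.3 and 21.6 TPM after 1 h. In Med14 S983A cells Med7 went from 35.8 and 30.3 to 19.8 and 16.3 TPM. The log2 changes were -0.84 (SE 0.07, adjusted p = 6.35e-10) and -0.84 (SE 0.07, adjusted p = 4.20e-10), and treated and untreated pairs did not overlap. Med18 was at 47.3 and 47.1 TPM at CON and 30.9 and 27.98 TPM after 1 h in WT, a change of -0.66 (SE 0.07, adjusted p = 7.00e-09). Its Med14 S983A libraries read 52.97 and 47.5 TPM at CON and 27.2 and 27.5 TPM after 1 h, a change of -0.85 (SE 0.07, adjusted p = 4.85e-11). The fall of Med18 in WT was -0.53 and below the fold minimum after centring on the median, as was that of Med9.

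Med9 moved in the same direction and was still lower at 8 h. In WT cells, Med9 was at 51.8 and 52.8 TPM at CON, 42.7 and 41.8, 46.2 and 47.2, and 42.5 and 42.6 TPM after 1, 8 and 16 h of Ex-4, and 33.4 and 32, 33.2 and 31.3, and 46.4 and 43.8 TPM after 1, 8 and 16 h of FSK. Med9 in Med14 S983A cells was at 46.5 and 46.9 TPM at CON, 31.9 and 33.4, 40.2 and 39.6, and 37.3 and 35.9 TPM after 1, 8 and 16 h of Ex-4, and 24.4 and 21.1, 25.2 and 24.9, and 31.7 and 33.6 TPM after 1, 8 and 16 h of FSK. Med9 changed by -0.66 (SE 0.05, adjusted p = 1.51e-10) at 1 h of FSK in WT and by -1.01 (SE 0.05, adjusted p = 2.65e-14) in Med14 S983A. At 8 h its changes were -0.68 (SE 0.05, adjusted p = 1.00e-11) and -0.87 (SE 0.05, adjusted p = 5.90e-14), or -0.29 and -0.54 after centring, which is under the fold minimum. Med7 and Med18 took different courses after 1 h. By 16 h of FSK Med7 was at 33.3 and 35.3 TPM in WT and 39.4 and 40.9 TPM in Med14 S983A, and none of its later changes was called. Its 8 h pairs were 33.9 and 33.3 TPM in WT and 33.04 and 33.7 TPM in Med14 S983A. Med18 was still at 32.4 and 30.4 TPM after 8 h and 32.9 and 34.4 TPM after 16 h in WT, and at 30.9 and 29.7 and then 34.2 and 34.1 TPM in Med14 S983A, where the 8 h change of -0.71 (SE 0.07, adjusted p = 2.42e-10) was called, though not after centring (-0.37). After Ex-4 the pairs of Med18 at 1, 8 and 16 h were 35.5 and 31.4, 45.6 and 49.3, and 42.6 and 44.8 TPM in WT and 38.4 and 36.2, 48.2 and 49.5, and 46.4 and 41.01 TPM in Med14 S983A. Those of Med7 were 29.4 and 32, 33.9 and 36.2, and 35.5 and 33.7 TPM in WT and 28.6 and 29.2, 33.96 and 33.6, and 35.3 and 33.9 TPM in Med14 S983A. None of these Ex-4 changes was called. At 1 h of Ex-4 the pairs of Med18, Med7 and Med9 lay below their CON pairs in both genotypes.

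**Figure D2:**
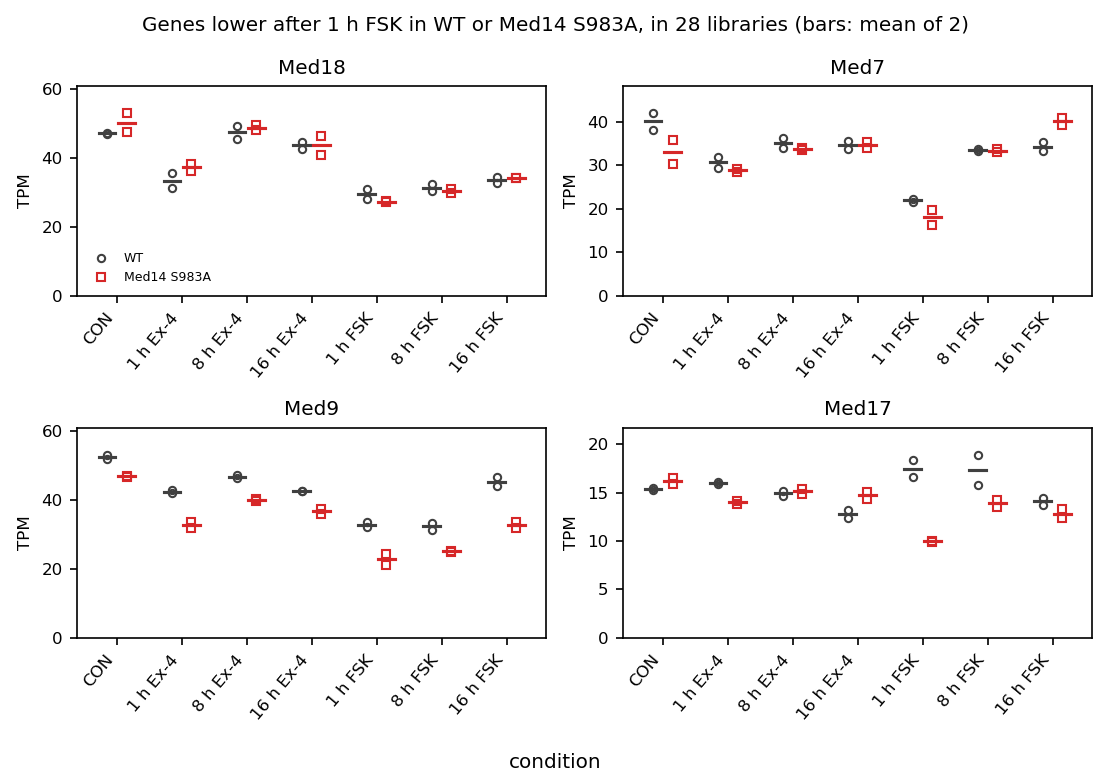
TPM of Med18, Med7, Med9 and Med17 in each of the 28 libraries by condition (WT circles, Med14 S983A squares, bars the mean of 2 libraries, axes from 0). Med7 drops at 1 h of FSK in both genotypes and is higher again at 8 h, while Med17 drops at that time in Med14 S983A only, where the genotypes differ by -0.81 in the log2 response.

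Med17, a head subunit that contacts many activators, was called in the mutant alone. It was at 15.5 and 15.3 TPM at CON and 18.3 and 16.6 TPM after 1 h of FSK in WT. In Med14 S983A it was at 16.4 and 15.9 TPM at CON and 10.04 and 9.93 TPM after 1 h. The Med14 S983A pair at 1 h was the lowest of the 14 pairs. The change was 0.17 (SE 0.07, adjusted p = 0.0427) in WT and -0.64 (SE 0.07, adjusted p = 1.25e-08) in Med14 S983A, and the test of the difference gave -0.81 (SE 0.10, adjusted p = 1.35e-06). It was the 1 member of 30 called in that comparison, against 1.64% of all genes. The fall within Med14 S983A was -0.50 and under the fold minimum after centring, while the difference between genotypes was called under every alternative run. After FSK the pairs were 18.8 and 15.8 TPM at 8 h and 13.7 and 14.4 TPM at 16 h in WT, and 14.3 and 13.5 TPM at 8 h and 12.3 and 13.3 TPM at 16 h in Med14 S983A. After 1, 8 and 16 h of Ex-4 they were 16.1 and 15.9, 15.2 and 14.7, and 13.2 and 12.4 TPM in WT and 14.1 and 13.9, 15.4 and 14.9, and 15.1 and 14.4 TPM in Med14 S983A. The annotated span of Med17 (chr8:13522263-13835302, rn6) overlaps Panx1 and Hephl1 on the same strand, at mean levels of 7.99 and 0.0462 TPM, so shared reads are possible.

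In the kinase module the paralogs Cdk8 and Cdk19, alternative catalytic subunits, moved apart. Cdk19 (chr20:45458558-45598798, rn6) was the member with the deepest fall. In WT cells, Cdk19 was at 32.5 and 31.7 TPM at CON, 31.5 and 32.2, 22.2 and 21.9, and 16.6 and 16.8 TPM after 1, 8 and 16 h of Ex-4, and 31.6 and 29.4, 9.41 and 8.61, and 11.4 and 12.6 TPM after 1, 8 and 16 h of FSK. Cdk19 in Med14 S983A cells was at 32.9 and 31.5 TPM at CON, 33.05 and 32.3, 25.3 and 23.9, and 14.3 and 14.7 TPM after 1, 8 and 16 h of Ex-4, and 30.98 and 31.6, 10.97 and 10.5, and 8.79 and 8.92 TPM after 1, 8 and 16 h of FSK. At 1 h the pairs lay close to CON for both agents, and every pair at 8 and 16 h lay below every CON and 1 h value of its genotype. The change at 16 h of Ex-4 was -0.90 (SE 0.06, adjusted p = 6.45e-13) in WT and -1.10 (SE 0.06, adjusted p = 1.07e-14) in Med14 S983A. At 8 h of FSK it was -1.73 (SE 0.06, adjusted p = 1.41e-19) and -1.50 (SE 0.06, adjusted p = 1.74e-18), and at 16 h of FSK -1.35 (SE 0.06, adjusted p = 3.05e-17) and -1.75 (SE 0.06, adjusted p = 1.42e-19). Each of these 6 calls held under every alternative run. The 8 h Ex-4 changes of -0.52 and -0.38 were under the fold minimum.

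Cdk8 (chr12:10496273-10561335, rn6) was not called lower after any treatment. In WT cells, Cdk8 was at 103 and 104 TPM at CON, 103 and 103, 103 and 108, and 101 and 105 TPM after 1, 8 and 16 h of Ex-4, and 108 and 104, 116 and 110.1, and 111 and 110.0 TPM after 1, 8 and 16 h of FSK. Cdk8 in Med14 S983A cells was at 62.2 and 58.97 TPM at CON, 62.4 and 58.9, 73.9 and 73.5, and 80.8 and 77.1 TPM after 1, 8 and 16 h of Ex-4, and 56.9 and 63.9, 106 and 108, and 90.4 and 94.01 TPM after 1, 8 and 16 h of FSK. WT values stayed between 101 and 116 TPM, while those of Med14 S983A started near 60 TPM and came up to the WT range after 8 h of FSK. That rise was 0.81 (SE 0.05, adjusted p = 2.59e-14), the WT change was 0.13 (SE 0.05, adjusted p = 0.0149), and their difference was 0.68 (SE 0.07, adjusted p = 6.88e-09), which was called under every alternative. It was the 1 member called for that difference, against 13.9% of all genes. At 16 h of FSK the rise in Med14 S983A was 0.60 (SE 0.05, adjusted p = 1.81e-11), but without Med14 S983A CON replicate 2 or without Med14 S983A 16 h FSK replicate 2 it was 0.56 or 0.57 and under the fold minimum. The difference between genotypes at 16 h of FSK, 0.51 (SE 0.07, adjusted p = 6.12e-07), was not called.

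Set against each other within a library, which no scaling can alter, Cdk8 made up 76.3 ± 0.48% (SD, n = 2) of the Cdk8 and Cdk19 TPM in WT at CON and 65.3 ± 0.18% in Med14 S983A. At 16 h of Ex-4 the shares were 86.03 ± 0.17% and 84.4 ± 0.68%. At 8 h of FSK they reached 92.6 ± 0.16% and 90.9 ± 0.33%, and at 16 h of FSK 90.2 ± 0.65% and 91.2 ± 0.14%. The gap between the genotypes was wider at CON than at the late times. With 2 libraries a group these shares are given as a description, without a test.

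Of the other kinase module genes, Med12, which activates the kinase through cyclin C, fell after FSK, while Med13, which links the module to the core, and Ccnc were not called in any comparison with CON with TPM. In WT cells, Med12 was at 16.7 and 14.8 TPM at CON, 15.04 and 14.9, 12.6 and 11.7, and 11.6 and 12.4 TPM after 1, 8 and 16 h of Ex-4, and 16.1 and 14.6, 6.37 and 5.61, and 9.01 and 10.1 TPM after 1, 8 and 16 h of FSK. Med12 in Med14 S983A cells was at 15.6 and 15.5 TPM at CON, 14.7 and 13.5, 13.3 and 12.7, and 12.3 and 12.1 TPM after 1, 8 and 16 h of Ex-4, and 13.6 and 14.5, 5.06 and 4.42, and 9.45 and 10.4 TPM after 1, 8 and 16 h of FSK. The lowest pairs in both genotypes were those of 8 h FSK, well apart from CON. Med12 changed by -1.26 (SE 0.08, adjusted p = 1.00e-13) in WT and -1.53 (SE 0.08, adjusted p = 1.51e-15) in Med14 S983A at 8 h, calls that held under every alternative. At 16 h of FSK the changes were -0.66 (SE 0.08, adjusted p = 2.90e-08) and -0.60 (SE 0.08, adjusted p = 1.43e-07), but these were not called with either other scaling, nor in WT without WT CON replicate 1 (-0.58) or WT 16 h FSK replicate 1 (-0.58), nor in the mutant without Med14 S983A 16 h FSK replicate 1 (-0.54).

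Med13 and Ccnc varied over a narrower range. In WT cells, Med13 was at 14.3 and 13.6 TPM at CON, 14.5 and 14.96, 12.9 and 12.2, and 12.4 and 12.8 TPM after 1, 8 and 16 h of Ex-4, and 16.6 and 13.96, 14.9 and 14.8, and 12.7 and 14.2 TPM after 1, 8 and 16 h of FSK. Med13 in Med14 S983A cells was at 11.7 and 10.4 TPM at CON, 12.9 and 11.04, 12.4 and 11.6, and 11.9 and 10.2 TPM after 1, 8 and 16 h of Ex-4, and 11.5 and 13.6, 13.9 and 12.95, and 11.7 and 12.6 TPM after 1, 8 and 16 h of FSK. The change of Med13 farthest from 0 was 0.27 (SE 0.09, adjusted p = 0.00786) at 8 h of FSK in Med14 S983A, which passed the fold minimum only after centring (0.60). Ccnc had the narrowest span of all members. In WT cells, Ccnc was at 56.4 and 52.4 TPM at CON, 49.8 and 50.1, 54.99 and 54.1, and 45.9 and 42.8 TPM after 1, 8 and 16 h of Ex-4, and 51.8 and 49.2, 49.1 and 47.9, and 50.2 and 51.96 TPM after 1, 8 and 16 h of FSK. Ccnc in Med14 S983A cells was at 52.3 and 44.5 TPM at CON, 46.4 and 45.3, 47.6 and 47.5, and 49.2 and 42.8 TPM after 1, 8 and 16 h of Ex-4, and 42.9 and 43.1, 43.4 and 43.5, and 52.8 and 51.9 TPM after 1, 8 and 16 h of FSK. All 28 values of Ccnc lay between 42.8 and 56.4 TPM.

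**Figure D3:**
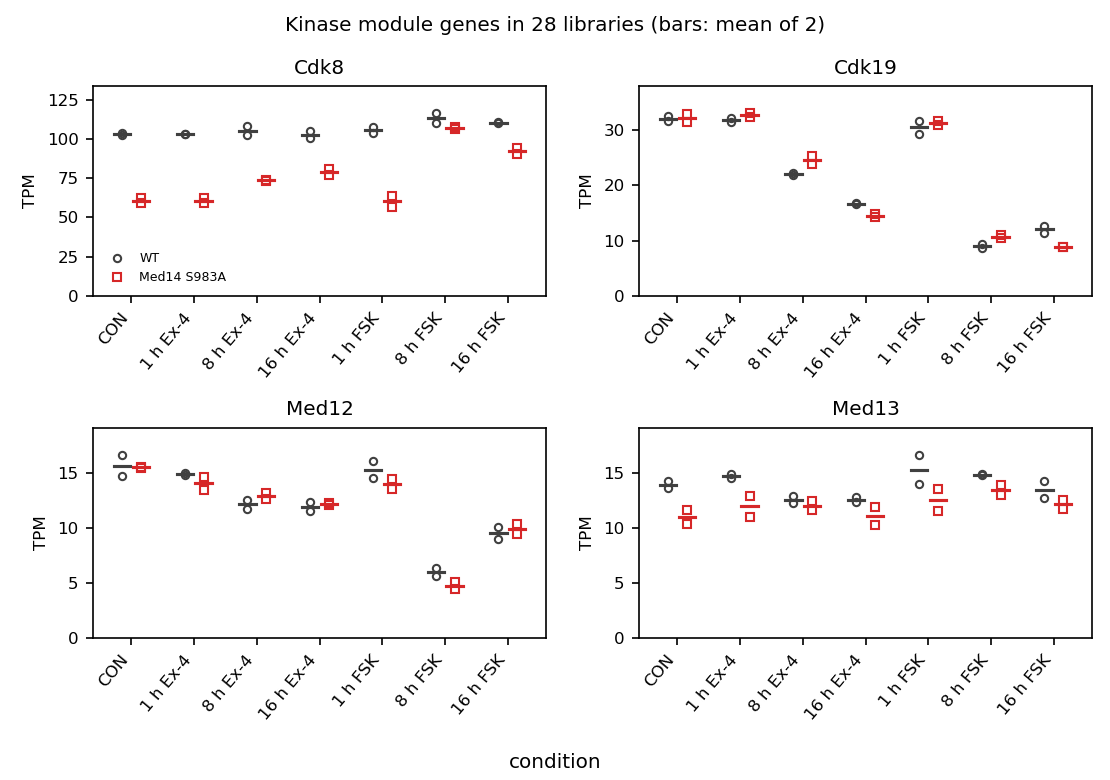
TPM of Cdk8, Cdk19, Med12 and Med13 in each of the 28 libraries by condition (WT circles, Med14 S983A squares, bars the mean of 2 libraries, axes from 0). Cdk19 falls from 31.5 to 32.9 TPM at CON to 8.61 to 12.6 TPM at 8 and 16 h of FSK, while Cdk8 stays at 101 to 116 TPM in WT and climbs from 59.0 and 62.2 TPM at CON to 106 and 108 TPM at 8 h in Med14 S983A.

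In the tail module the genes called lower after 8 h of FSK were Med16, Med23, Med24 and Med25 in both genotypes, while Med15 was not called. Med23 and Med25 take signals from activators, and Med16 and Med24 anchor the tail. In WT cells, Med23 was at 73.8 and 67.8 TPM at CON, 64.5 and 63.2, 44.3 and 45.6, and 43.9 and 46.6 TPM after 1, 8 and 16 h of Ex-4, and 64.8 and 61.2, 26.03 and 25.1, and 26.4 and 28.6 TPM after 1, 8 and 16 h of FSK. Med23 in Med14 S983A cells was at 63.2 and 60.03 TPM at CON, 59.1 and 56.96, 47.6 and 48.1, and 50.4 and 48.5 TPM after 1, 8 and 16 h of Ex-4, and 53.1 and 54.8, 28.2 and 26.5, and 29.6 and 30.2 TPM after 1, 8 and 16 h of FSK. The FSK pairs at 8 and 16 h were below those of every other condition in both genotypes. The change at 8 h was -1.43 (SE 0.05, adjusted p = 8.91e-19) in WT and -1.15 (SE 0.05, adjusted p = 7.16e-17) in Med14 S983A, and at 16 h it was -1.33 (SE 0.05, adjusted p = 5.73e-18) and -1.02 (SE 0.05, adjusted p = 1.44e-15), 4 calls that held under every alternative.

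Med23 was also the only tail gene called after Ex-4 in WT. The change of Med23 at 8 h was -0.64 (SE 0.05, adjusted p = 8.04e-11) and at 16 h -0.63 (SE 0.05, adjusted p = 7.73e-11). Without WT CON replicate 1 these were -0.58 and -0.58, under the fold minimum, and with either other scaling they were not called. With no fold minimum Med25 was lower and Med15 higher at 8 h too, where 41.8% of all genes were lower. At 16 h Med16, Med24 and Med25 were then lower as well, against 52.4% of all genes. The changes of Med23 in Med14 S983A, -0.36 and -0.31, were not called. Its difference between genotypes was 0.29 (SE 0.07, adjusted p = 0.00625) at 8 h and 0.32 (SE 0.07, adjusted p = 7.74e-04) at 16 h, neither past the fold minimum.

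Med25 was the most abundant tail gene. In WT cells, Med25 was at 129.9 and 117 TPM at CON, 119 and 116, 88.7 and 91.1, and 91.6 and 94.6 TPM after 1, 8 and 16 h of Ex-4, and 111 and 114, 59.7 and 54.8, and 64.8 and 62.2 TPM after 1, 8 and 16 h of FSK. Med25 in Med14 S983A cells was at 129.6 and 142 TPM at CON, 127 and 125, 99.1 and 93.3, and 91.6 and 91.7 TPM after 1, 8 and 16 h of Ex-4, and 121 and 116, 51.3 and 47.7, and 56.4 and 58.2 TPM after 1, 8 and 16 h of FSK. Its late FSK pairs lay below all others in both genotypes, at less than 66 TPM. The change was -1.10 (SE 0.05, adjusted p = 4.19e-16) in WT and -1.44 (SE 0.05, adjusted p = 1.29e-18) in Med14 S983A at 8 h, and -0.95 (SE 0.05, adjusted p = 1.16e-14) and -1.23 (SE 0.05, adjusted p = 6.24e-17) at 16 h. With spike-in scaling the WT change at 16 h was -0.58, just inside the fold minimum, and the other 3 calls held under every alternative.

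Med16 and Med24 followed with smaller changes. In WT cells, Med16 was at 44.5 and 42.6 TPM at CON, 43.1 and 42.6, 41.1 and 42.1, and 34.9 and 37.4 TPM after 1, 8 and 16 h of Ex-4, and 42.2 and 40.2, 22.4 and 20.8, and 24.7 and 25.4 TPM after 1, 8 and 16 h of FSK. Med16 in Med14 S983A cells was at 45.5 and 47.7 TPM at CON, 44.05 and 42.1, 40.4 and 39.9, and 37.97 and 37.4 TPM after 1, 8 and 16 h of Ex-4, and 42.5 and 40.4, 17.5 and 17.6, and 29.4 and 29.7 TPM after 1, 8 and 16 h of FSK. At 8 h of FSK Med16 changed by -0.98 (SE 0.05, adjusted p = 7.08e-16) and -1.36 (SE 0.05, adjusted p = 7.33e-19). At 16 h it changed by -0.78 (SE 0.05, adjusted p = 1.20e-13) and -0.64 (SE 0.05, adjusted p = 5.79e-12), calls that neither other scaling kept. The span of Med16 overlaps Arhgap45 on the opposite strand, at a mean of 3.40 TPM. In WT cells, Med24 was at 42.3 and 42.1 TPM at CON, 41.4 and 40.6, 38.4 and 41.7, and 35.2 and 37 TPM after 1, 8 and 16 h of Ex-4, and 42.02 and 42.7, 25.3 and 24.98, and 31.7 and 34.01 TPM after 1, 8 and 16 h of FSK. Med24 in Med14 S983A cells was at 44.4 and 44.6 TPM at CON, 42.5 and 41.3, 42.4 and 42.4, and 37.8 and 38.4 TPM after 1, 8 and 16 h of Ex-4, and 39.4 and 39.5, 23.6 and 22.9, and 33.7 and 35.2 TPM after 1, 8 and 16 h of FSK. Only the 8 h FSK pairs stood well below the rest. Med24 changed at 8 h by -0.72 (SE 0.05, adjusted p = 1.20e-13) and -0.91 (SE 0.05, adjusted p = 9.99e-16), and after centring by -0.33 and -0.57, which is under the fold minimum.

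Med15, the tail subunit bound by sterol-responsive activators, was not called after any treatment with TPM. Its change farthest from 0 was -0.51 (SE 0.06, adjusted p = 5.41e-08) at 1 h of FSK in Med14 S983A, which was -0.72 and called with spike-in scaling. At 8 h of FSK its pair in WT, 60.3 and 52.4 TPM, held the CON pair of 57.4 and 55.3 TPM within its range. In Med14 S983A it was at 87.1 and 90.8 TPM at CON and 66.6 and 62.9 TPM after 8 h of FSK, with a change of -0.45 (SE 0.06, adjusted p = 1.12e-07) that stayed under the fold minimum. As a share of the summed TPM of all members in a library, the 5 tail genes made up 23.04 ± 0.89% at CON and 16.5 ± 0.47% after 8 h of FSK in WT, and 26.7 ± 1.1% and 16.5 ± 0.44% in Med14 S983A. These shares do not depend on the scaling of a library.

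**Figure D4:**
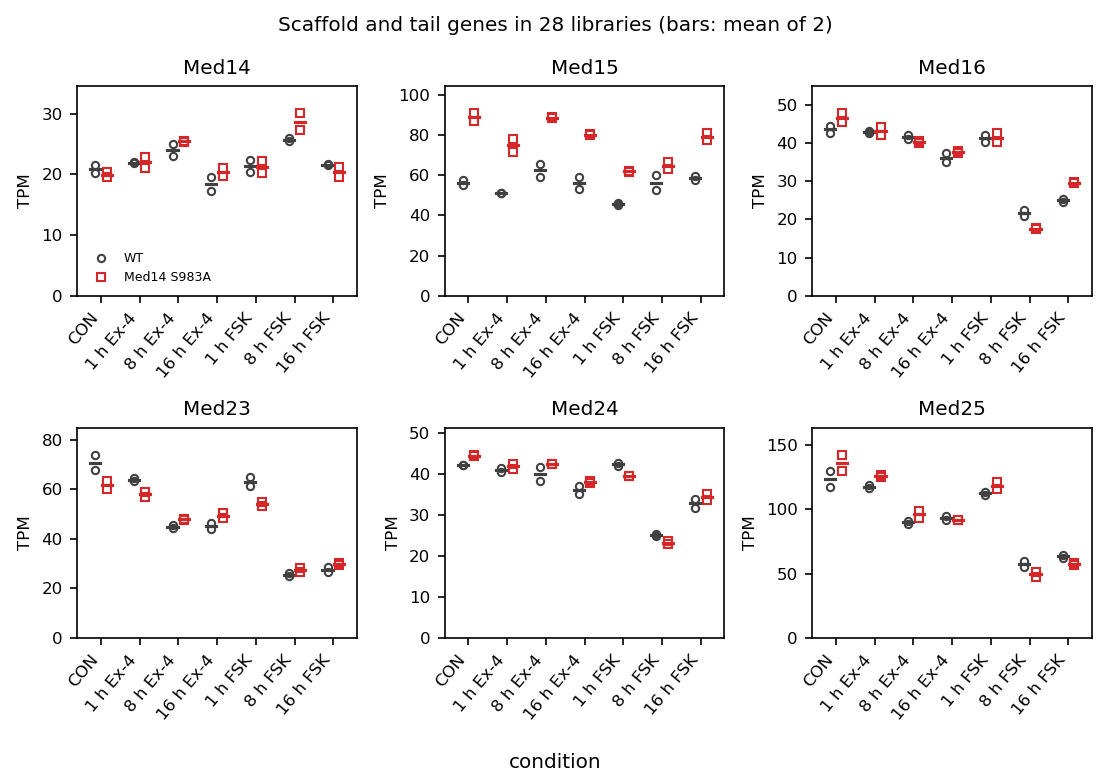
TPM of the scaffold gene Med14 and the tail genes Med15, Med16, Med23, Med24 and Med25 in each of the 28 libraries by condition (WT circles, Med14 S983A squares, bars the mean of 2 libraries, axes from 0). Med16, Med23, Med24 and Med25 are lowest at 8 h of FSK in both genotypes, while Med14 lies above its CON pair there and Med15 is higher in Med14 S983A in every condition.

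In the head module Med11 and Med27 fell at 8 h of FSK in both genotypes. Med27 lies where head and tail meet, and Med11 pairs with Med22 within the head. In WT cells, Med27 was at 89.2 and 88.8 TPM at CON, 90.1 and 85.8, 69.4 and 72.1, and 65.8 and 64.3 TPM after 1, 8 and 16 h of Ex-4, and 92.3 and 88.4, 44.7 and 43.1, and 53.9 and 54.7 TPM after 1, 8 and 16 h of FSK. Med27 in Med14 S983A cells was at 89.97 and 92.04 TPM at CON, 90.1 and 89.3, 78.98 and 76.7, and 76.7 and 76.4 TPM after 1, 8 and 16 h of Ex-4, and 87.4 and 80.7, 50.1 and 49.4, and 64.6 and 66.7 TPM after 1, 8 and 16 h of FSK. The 8 h FSK pairs were the lowest in each genotype, at 43.1 to 50.1 TPM. Med27 changed by -1.002 (SE 0.04, adjusted p = 1.75e-17) in WT, a call held under every alternative, and by -0.86 (SE 0.04, adjusted p = 3.32e-16) in Med14 S983A, which centring brought to -0.52. Its 16 h change of -0.70 (SE 0.04, adjusted p = 3.51e-14) in WT was not called with either other scaling.

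In WT cells, Med11 was at 34.8 and 36.4 TPM at CON, 29.6 and 34.4, 30.1 and 28.4, and 28.1 and 27.4 TPM after 1, 8 and 16 h of Ex-4, and 31.1 and 30.7, 20.6 and 19.4, and 23.6 and 23.1 TPM after 1, 8 and 16 h of FSK. Med11 in Med14 S983A cells was at 29.9 and 30.9 TPM at CON, 26.3 and 28.4, 24.9 and 26.1, and 21.6 and 22.1 TPM after 1, 8 and 16 h of Ex-4, and 26.01 and 27.9, 11.9 and 12.9, and 20.6 and 20.8 TPM after 1, 8 and 16 h of FSK. The lowest pair of Med11 was again that of 8 h FSK, with 11.9 and 12.9 TPM in Med14 S983A. Its change there was -1.23 (SE 0.06, adjusted p = 1.01e-15), a call held under every alternative. In WT it was -0.80 (SE 0.06, adjusted p = 7.58e-12) and, after centring, -0.41. At 16 h in WT it was -0.59 (SE 0.06, adjusted p = 3.55e-09), and -0.56 or -0.57 without WT CON replicate 2 or WT 16 h FSK replicate 2, both under the fold minimum, as it was with either other scaling.

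Med30, which also sits between head and tail, was the head gene called after Ex-4. Its WT pairs were 28.1 and 30.1 TPM at CON and 31.7 and 31.9, 35.3 and 38.5, and 19.7 and 18.4 TPM after 1, 8 and 16 h of Ex-4. The 16 h pair was the lowest of all 14 groups, while the 8 h pair lay above CON. In Med14 S983A the pairs were 35.4 and 34.2 TPM and 34.5 and 34.3, 41.6 and 38.4, and 28.4 and 29.4 TPM. After 1, 8 and 16 h of FSK they were 29.6 and 31.01, 29.04 and 28.4, and 32.4 and 32.3 TPM in WT and 31 and 30.96, 32.7 and 30.6, and 43.5 and 45.8 TPM in Med14 S983A. The WT change at 16 h of Ex-4, -0.59 (SE 0.05, adjusted p = 7.08e-10), only just passed the fold minimum, was -0.54 without WT CON replicate 2 or WT 16 h Ex-4 replicate 2, and was not called with either other scaling.

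Among the middle genes Med31, a small conserved subunit, and Med21, a hinge subunit, were lower at 8 h of FSK. In WT cells, Med31 was at 55.03 and 60.9 TPM at CON, 50.2 and 52.5, 41.7 and 42.7, and 43.7 and 42.4 TPM after 1, 8 and 16 h of Ex-4, and 61.7 and 60.4, 36.3 and 34.3, and 38.1 and 41.6 TPM after 1, 8 and 16 h of FSK. Med31 in Med14 S983A cells was at 78.1 and 73.2 TPM at CON, 66.3 and 70.99, 57.3 and 53.7, and 58.5 and 57.1 TPM after 1, 8 and 16 h of Ex-4, and 71.1 and 85.2, 40.5 and 41.5, and 47.6 and 49.4 TPM after 1, 8 and 16 h of FSK. Its late pairs lay below CON for both agents. Med31 changed at 8 h of FSK by -0.70 (SE 0.06, adjusted p = 2.54e-10) and -0.87 (SE 0.06, adjusted p = 3.34e-12), and after centring by -0.31 and -0.53. At 16 h of FSK in Med14 S983A it changed by -0.63 (SE 0.06, adjusted p = 2.24e-09), or by -0.58 without Med14 S983A CON replicate 1, a call that neither other scaling kept. Med21 changed by -0.67 (SE 0.06, adjusted p = 4.45e-10) at 8 h of FSK in WT and by -0.35 (SE 0.06, adjusted p = 1.88e-05) in Med14 S983A, and the WT call was lost on centring (-0.28).

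With TPM, 14 of the 30 tested members were called in none of the 12 comparisons with CON, with log2 changes from -0.51 to 0.57. Besides Med14, Med13, Ccnc and Med15 these were Med1, Med4, Med6, Med8, Med10, Med19, Med20, Med26, Med28 and Med29. The share of all genes called in none of the 12 was not counted, so the 14 are given as a description only. Over the 28 libraries Med1, which binds nuclear receptors, ranged from 17.4 to 27.9 TPM, Med26, which binds elongation factors, from 7.204 to 11.6 TPM, and the middle subunit Med10 from 108 to 152 TPM. The head subunits Med6, Med20, Med28 and Med29 ranged from 24.8 to 41.7, 26.97 to 41.6, 47.2 to 63.6 and 28.9 to 45.5 TPM. Under another scaling 8 of these 14 were called. With spike-ins Med6, Med8, Med15 and Med19 were lower at 1 h of FSK in Med14 S983A, where 14.7% of all genes were lower. The median of all genes there was -0.30. Med8 and Med29 were higher at 16 h of FSK in WT (20.9% of all genes higher). Med8 was higher at 16 h of FSK in Med14 S983A (20.5% of all genes higher). After centring Med4, Med8, Med13 and Med14 were higher at 8 h of FSK in Med14 S983A (21.7% of all genes higher), and Med8 at 16 h (17.1%). Med8, a head subunit, changed by 0.31 and Med4, a middle subunit, by 0.31 at 8 h of FSK in WT. After centring these became 0.70 and 0.70 and were called higher together with Med14, while Cdk19, Med12, Med16, Med23, Med25 and Med27 were still called lower. With spike-in scaling the 11 lower calls of TPM were all made again and none was higher.

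The agents were compared with each other in WT at matched times, at the single dose of each. After 1 h none of 30 members differed in limma, edgeR or DESeq2, against 1.79% of all genes called by limma. At an unadjusted p under 0.05 there were 10. On adjusted p with no fold minimum there were 6, against 13.3% of all genes. After 8 h 7 of 30 were higher with Ex-4 than with FSK, against 23.3% of all genes higher and 28.1% called. Cdk19 was higher by 1.21 (SE 0.06, adjusted p = 6.29e-16), Med12 by 0.92 (SE 0.08, adjusted p = 9.77e-11) and Med16 by 0.92 (SE 0.05, adjusted p = 7.56e-15). The others were Med23 (0.79), Med24 (0.65), Med25 (0.64) and Med27 (0.68). The calls of Cdk19, Med12 and Med16 held under every alternative, the other 4 were not called after centring, and Med25 was at 0.58 without WT 8 h FSK replicate 2. After 16 h 2 members differed, against 18.7% of all genes. Med23 was higher with Ex-4 by 0.70 (SE 0.05, adjusted p = 6.18e-12) and Med30 was lower, with -0.74 (SE 0.05, adjusted p = 5.70e-12), and both held under every alternative.

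Between the genotypes at CON 4 of 30 members were called, against 19.4% of all genes. Med21, Med19 and Cdk8 were lower in Med14 S983A and Med15 was higher. Averaged over the 7 conditions 3 members were called, against 17.5% of all genes, with Med21 and Med19 lower and Med8 higher. In WT cells, Med21 was at 58.2 and 58.96 TPM at CON, 56.4 and 55.6, 53.1 and 49.95, and 45.2 and 43.8 TPM after 1, 8 and 16 h of Ex-4, and 57 and 51.97, 36.4 and 36.6, and 39.3 and 41.6 TPM after 1, 8 and 16 h of FSK. Med21 in Med14 S983A cells was at 28.9 and 25.98 TPM at CON, 27.4 and 26.6, 25.1 and 29.2, and 28.8 and 26.5 TPM after 1, 8 and 16 h of Ex-4, and 25.8 and 26.03, 21.9 and 20.7, and 29.6 and 27.6 TPM after 1, 8 and 16 h of FSK. All 14 Med14 S983A values lay below all 14 WT values. The difference was -1.07 (SE 0.06, adjusted p = 1.10e-13) at CON and -0.85 (SE 0.02, adjusted p = 2.92e-21) over the 7 conditions.

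Med19 is a middle subunit that contacts transcription factors, and its gene is the one that was tagged in some lines of the study. Whether the sequenced cells were tagged is not stated, and a part of the tag in the genotype difference was not tested. In WT cells, Med19 was at 59.2 and 56.3 TPM at CON, 53.7 and 54.01, 45.9 and 50.6, and 39.5 and 41.8 TPM after 1, 8 and 16 h of Ex-4, and 47.7 and 47.5, 46.6 and 45.2, and 41.6 and 43.2 TPM after 1, 8 and 16 h of FSK. Med19 in Med14 S983A cells was at 30.1 and 30.5 TPM at CON, 29.8 and 26.5, 31.2 and 30.8, and 26.9 and 26.7 TPM after 1, 8 and 16 h of Ex-4, and 21.2 and 23.7, 34.7 and 35.01, and 30.7 and 29.4 TPM after 1, 8 and 16 h of FSK. Again no Med14 S983A value reached a WT value, the highest being 35.0 and the lowest WT value 39.5 TPM. The difference was -0.91 (SE 0.06, adjusted p = 2.29e-13) at CON and -0.71 (SE 0.02, adjusted p = 1.02e-20) over the 7 conditions. The span of Med19 overlaps Tmx2 on the opposite strand, at a mean of 178 TPM. These 2 of 30 members had ranges apart in TPM, against 8.54% of all genes. After centring it was Med21 alone (8.86% of all genes), and with spike-ins Med19 alone (5.45%).

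Cdk8 differed at CON by -0.76 (SE 0.05, adjusted p = 2.68e-13), or -0.56 and under the fold minimum with spike-in scaling. Med15 differed by 0.65 (SE 0.06, adjusted p = 4.18e-10) at CON. In WT cells, Med15 was at 57.4 and 55.3 TPM at CON, 51.1 and 50.97, 59.3 and 65.4, and 53.3 and 59.3 TPM after 1, 8 and 16 h of Ex-4, and 46.4 and 45.1, 60.3 and 52.4, and 57.5 and 59.4 TPM after 1, 8 and 16 h of FSK. Med15 in Med14 S983A cells was at 87.1 and 90.8 TPM at CON, 77.9 and 71.7, 88.3 and 88.8, and 79.8 and 80.3 TPM after 1, 8 and 16 h of Ex-4, and 61.7 and 62.1, 66.6 and 62.9, and 77.3 and 80.8 TPM after 1, 8 and 16 h of FSK. In each condition the Med14 S983A pair of Med15 lay above the WT pair. In WT cells, Med8 was at 33.7 and 32.04 TPM at CON, 29.2 and 29.7, 32.9 and 31.1, and 28.6 and 27.8 TPM after 1, 8 and 16 h of Ex-4, and 24.8 and 25.1, 41.9 and 40.2, and 38.04 and 41.8 TPM after 1, 8 and 16 h of FSK. Med8 in Med14 S983A cells was at 50.9 and 46.8 TPM at CON, 45.6 and 41.3, 54.5 and 54.8, and 61.4 and 60.05 TPM after 1, 8 and 16 h of Ex-4, and 35.7 and 37.3, 64.9 and 63.4, and 73.1 and 73.1 TPM after 1, 8 and 16 h of FSK. Again the mutant pair was above the WT pair in every condition. The difference of Med8 was 0.56 (SE 0.05, adjusted p = 8.69e-10) at CON, under the fold minimum with TPM but not with the other scalings, and 0.71 (SE 0.02, adjusted p = 2.33e-21) over the 7 conditions.

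These differences lay in gene neighbourhoods of different kinds. The 25 tested genes on each side of a member, fewer near a chromosome end, were compared in the same way. Med21 lies near the end of chromosome 4 (chr4:180961194-180968155, rn6), where the median difference of its 35 neighbours at CON was -0.97 and only 3 of them were above 0. Med8 (chr5:137243094-137243978) had neighbours with a median of 0.56, 47 of 50 above 0, the same size as its own difference. Around Med15 (chr11:87553868-87628502) the median was 0.34, with 35 of 50 above 0. By contrast, the neighbours of Med19 (chr3:72080630-72091150) and Cdk8 (chr12:10496273-10561335) had medians of -0.16 and -0.12. The part of the neighbourhoods in these differences was not tested. Among the beta cell markers Ins2, Iapp and Slc2a2 also had ranges that did not overlap between the genotypes, against 8.54% of all genes. The ranges of Ins1, Pdx1, Nkx6-1, Neurod1, Isl1 and Chga overlapped. Ins2 was at 1080 to 2991 TPM in WT and 6719 to 37516 TPM in Med14 S983A, Iapp at 6973 to 14797 and 2729 to 3762 TPM, and the glucose transporter gene Slc2a2 at 228 to 591 and 23.8 to 76.2 TPM. Gcg too was lower in Med14 S983A, as given above. Their part in the differences was not tested either. As the knock-in cells are clones, the substitution and other features of a clone cannot be told apart.

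**Figure D5:**
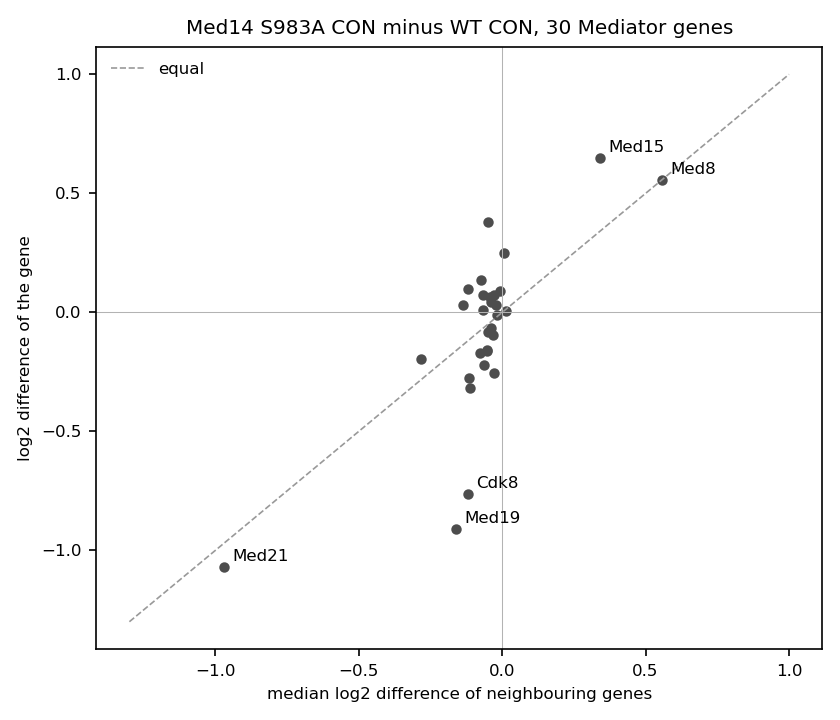
Log2 difference of each of the 30 tested Mediator genes between Med14 S983A CON and WT CON (vertical axis) against the median log2 difference of the neighbouring tested genes (horizontal axis), with genes beyond 0.5 named. Med21 and Med8 lie on or close to the dashed line of equal values, while Med19 and Cdk8 lie well below neighbours near 0.

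Whether the responses themselves differed between the genotypes was tested as an interaction. With limma on TPM no member was called apart from Med17 at 1 h and Cdk8 at 8 h of FSK. For 1 h of FSK edgeR and DESeq2 called 2 members. After centring limma called Med26 (0.60, against 0.58 with TPM) with Med17, where 1.65% of all genes were called. With spike-ins it called Med9 (-0.59, against -0.35 with TPM) with Med17, where 2.78% of all genes were called. After 1, 8 and 16 h of Ex-4 the counts were 0 of 30 in limma, edgeR and DESeq2. Of all genes limma called 0.672%, 2.77% and 7.24%. At an unadjusted p under 0.05 there were 3, 6 and 15 members. On adjusted p with no fold minimum there were 0, 3 and 10, against 1.55%, 18.6% and 42% of all genes. With spike-in scaling, in limma and in DESeq2, Cdk19 was called for 16 h of Ex-4. Its fall was deeper in Med14 S983A (-0.61 with spike-ins and -0.20 with TPM). Of all genes limma with spike-ins called 16.6% there. At 16 h of FSK 0 of 30 were called by limma, edgeR or DESeq2, against 17% of all genes called by limma. At an unadjusted p under 0.05 there were 14 members. On adjusted p with no fold minimum there were 13, against 57.9% of all genes.

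Of the machinery that Mediator works with, a list of 51 genes of RNA polymerase II, the general factors, elongation, enhancer coactivators and cohesin, 42 were tested. After 8 h of FSK in WT 4 rose and 7 fell of the 42 (8.77% of all genes were higher and 34.8% lower), with a median of -0.20 against -0.34 for all genes. Those that rose were Gtf2a2, Gtf2f1, Ccnh and Eaf1, and the largest rise was that of Eaf1, a partner of ELL elongation factors, at 1.36 (SE 0.05, adjusted p = 7.40e-19). Those that fell were the polymerase subunit Polr2e, the TFIIH subunits Gtf2h3 and Gtf2h4, Cdk9 and Ccnt2, the kinase and a cyclin of the elongation factor P-TEFb, and the cohesin genes Smc1a and Smc3. After 1 h of FSK 2 of the 42 fell in WT, against 4.94% of all genes, Gtf2e1 of the factor TFIIE by a log2 change of -0.81 (SE 0.06, adjusted p = 1.35e-10) and Ccnt2 by one of -0.75 (SE 0.10, adjusted p = 1.29e-06). The single call in WT after Ex-4 for 16 h was the cohesin gene Rad21, with -0.65 (SE 0.04, adjusted p = 4.69e-13), against 11.8% of all genes called. With spike-in scaling its change was -0.33, under the fold minimum, and edgeR and DESeq2 called 0 of the 42. Between the genotypes at CON 0 of the 42 were called by limma, edgeR or DESeq2, against 19.4% of all genes called by limma. At an unadjusted p under 0.05 there were 18 of the 42. Of all genes 66.2% had an adjusted p under 0.05 with no fold minimum. In the responses limma called a genotype difference for Aff4 (0.61) and Hexim1 (0.71) at 1 h of FSK, against 1.64% of all genes. It also called Aff1 at 8 h of FSK (0.70, against 13.9%) and Eaf1 at 16 h of Ex-4 (0.78, against 7.24%). With spike-in scaling Aff1 was at 0.64. Aff4, Hexim1 and Eaf1 were then at 0.36, 0.47 and 0.36, under the fold minimum.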

How the data were processed

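Total RNA of INS-1 cells, with ERCC spike-in RNA added per mass of RNA, was sequenced as paired-end, strand-specific libraries, 2 for each of 14 groups. The authors aligned the reads with STAR 2.5.3a to the rat genome rn6 with the spike-in sequences and made the deposited TPM values with HOMER 4.11.1 over the exons of RefSeq genes. The deposited counts are those of the spike-ins, and the authors tested genes with DESeq2 1.24.0 on spike-in size factors. Gene counts were not analysed here as deposited, so the main test is limma on TPM, not the DESeq2 test of the study. Spike-ins added per mass scale to RNA mass, not to cells.

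Groups came from the labels. Of the transcripts of a symbol the one with the highest mean was used, and 1676 others were left out. In R 4.3.3, limma 3.58.1 (trended, two-sided) was fitted to log2(TPM + 1) of the 10275 genes that averaged 1 TPM or more over the 28 libraries, with 14 residual degrees of freedom and 23 contrasts. Adjusted p-values follow Benjamini-Hochberg within a contrast, and a call needs an adjusted p under 0.05 and a fold above 1.5. Whole reads could be recovered from TPM, transcript length and a scale of each library set on its spike-in counts. This held for 100% of 135800 values under 1000 reads, within 0.05 reads plus the rounding of TPM. Both edgeR 4.0.16 and DESeq2 1.42.0 were run on the recovered fragments. Libraries of 42551148 to 92635964 fragments entered, and with 2 libraries a group their number limits the precision. Data were simulated for 16 h of Ex-4 against CON in WT (10215 genes, 200 changed). In them limma found 97% of 2-fold and 98% of 3-fold changes with 1 wrong call, and edgeR 99% and 98% with 0 wrong. The simulation used the same preset spread for all genes and as many rises as falls, and left the other genes unchanged. It held no shift of the whole library and no change near the fold of 1.5, so it does not measure errors there. Alternatives were other pseudocounts, filters, scalings (median centring, spike-ins), tools, single libraries left out and the replicate number as a block. Members and gene lists were chosen with earlier results of these data known. Values in every group are given for members called in a comparison and for Med14, Med19 and the kinase module, by library for the 12 with the largest called changes, and by range for others. Promoters are RefSeq sequences of GRCr8, and no coordinate was moved between builds. The replicate numbers name the libraries and were not used to pair them in the main test.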

Additional observations from a re-analysis of the deposited data

Results flagged for a closer look

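2 members differed between the genotypes in their response by the test of the difference itself. Med17 responded differently to 1 h of FSK, with a difference between genotypes of -0.81 on the log2 scale. Med17 was the 1 member of 30 called there, against 1.64% of all genes. It stood at 15.5 and 15.3 TPM at CON and 18.3 and 16.6 TPM after 1 h in WT, and at 16.4 and 15.9 TPM and then 10.0 and 9.93 TPM in Med14 S983A. The treated pairs of the 2 genotypes did not overlap. Panx1, which shares the annotated span of Med17, was at a mean of 7.99 TPM, and its part in the difference was not tested.

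Cdk8 responded differently to 8 h of FSK, with a difference of 0.68. Cdk8 was the 1 member of 30 called there, against 13.9% of all genes. It stood at 103 and 104 TPM at CON and 116 and 110.1 TPM after 8 h in WT, and at 62.2 and 59.0 TPM and then 106 and 108 TPM in Med14 S983A. The genotypes were apart at CON and close after 8 h. The difference rests in part on the CON pair of Med14 S983A, which all comparisons of that genotype with CON share.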

How the results depend on the processing

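Of 67 changes of members called, 40 were also called after centring on the median, 55 with spike-in (ERCC) scaling, 45 in edgeR, 42 in DESeq2 and 56 in DESeq2 with ERCC size factors, and none turned its direction under any alternative run. A pseudocount of 0.1 TPM, no filter, a mean of at least 5 TPM and the sum of transcripts kept all 67. After 8 h of Ex-4 in WT 0 members were called, in place of 1, after centring, with ERCC scaling, in edgeR, in DESeq2 and in DESeq2 with ERCC size factors, and after 16 h 1 in place of 3 under each of these. After 1 h of FSK in WT it was 1 in place of 3 after centring and in edgeR and DESeq2. After 16 h of FSK in WT it was 3 after centring and in DESeq2, and 4 with ERCC scaling and in edgeR, in place of 7. The 4 with ERCC scaling were 2 of the 7 lower ones (Cdk19, Med23) and 2 higher ones (Med8, Med29). With ERCC scaling, in limma and DESeq2, the Med14 S983A counts were 2 after 16 h of Ex-4 and 8 after 1 h of FSK. The count was 1 for the genotype difference in the 16 h Ex-4 response. Of all genes limma with ERCC scaling called 13.7%, 17.3% and 16.6% in these comparisons. The difference in the 1 h FSK response gave 2 members after centring (1.65% of all genes) and with ERCC scaling (2.78%). It also gave 2 with a pseudocount of 0.1 TPM, in edgeR and in both runs of DESeq2. The difference in the 16 h FSK response gave 1 with a pseudocount of 0.1 TPM. Between Ex-4 and FSK at 8 h in WT the count was 4 after centring (21.9% of all genes) and in edgeR and DESeq2. With ERCC scaling it was 11 in limma (36% of all genes) and in DESeq2, in place of 7. Ranges of the genotypes lay apart for 1 member after centring and 1 with ERCC scaling, in place of 2.

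With no fold minimum, counts of the 30 members are given here beside the share of all genes. At 1, 8 and 16 h they were 8, 16 and 25 for WT Ex-4 (25.2%, 59.2% and 68.7%). For WT FSK they were 16, 26 and 22 (44.2%, 84.4% and 80.5%). For Med14 S983A they were 8, 14 and 21 with Ex-4 (26.2%, 50.6% and 61.9%). With FSK they were 22, 25 and 22 there (52.4%, 84.6% and 78.9%). Between the genotypes they were 16 at CON (66.2%) and 21 over the 7 conditions (85.5%). For the difference in the 8 and 16 h Ex-4 responses they were 3 and 10 (18.6% and 42%). For that in the FSK responses they were 4, 19 and 13 (5.84%, 53.6% and 57.9%). Between the agents they were 6, 24 and 17 (13.3%, 77% and 68.4%). With single libraries left out the counts ranged from 0 to 1 for 8 h of Ex-4 in WT, from 1 to 2 for 16 h of Ex-4 in Med14 S983A, from 1 to 2 for the difference in the 1 h FSK response and from 0 to 2 for that in the 16 h FSK response. For 8 h of Ex-4 in WT the count of 0 came without WT CON replicate 1, and for 16 h of Ex-4 in Med14 S983A the count of 2 without Med14 S983A CON replicate 1. For the 1 h FSK difference 2 came without WT CON replicate 2, WT 1 h FSK replicate 2, Med14 S983A CON replicate 2 or Med14 S983A 1 h FSK replicate 1. For the 16 h FSK difference 2 came without Med14 S983A CON replicate 1, and 1 without WT CON replicate 1, WT 16 h FSK replicate 2 or Med14 S983A 16 h FSK replicate 2. Without the deepest library the same 12 members were called for 8 h of FSK in Med14 S983A. The cause of these shifts was not tested.

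With the replicate number as a block the counts of members called did not move (11 for 8 h of FSK in WT) and all 67 changes were called again. Whether same-numbered libraries were paired is not known. Deviations from group means correlated between same-numbered libraries at -0.28 to 0.283 over 91 pairs of groups. The median was 0.00346 and 17 were above 0.1. Low correlations cannot show that such libraries shared no culture or day.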
